A study of Mus musculus with 6 samples.

Results

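Signals from growth factor and cytokine receptors pass through the small GTPase Ras to a chain of MAP kinases, and the cell limits this flow with inhibitors that the pathway itself switches on. The dual-specificity phosphatases (Dusp genes) remove the activating phosphates from the kinases ERK, JNK and p38, whereas Sprouty and Spred proteins act higher up, between the receptor and Raf. In haematopoietic stem cells (HSCs), Ras and ERK signalling downstream of receptors such as KIT accompanies the exit from quiescence. Described here are 10 genes of these feedback families, picked out of the table by their symbols: the phosphatases Dusp1, Dusp2, Dusp4, Dusp5, Dusp6, Dusp10 and Dusp16, the Sprouty genes Spry1 and Spry2, and Spred1. All 10 were among the 16312 genes of the deposited table, and all 10 passed the filter on low counts with 14288 genes in all.

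The samples were HSCs sorted by flow cytometry from marrow of male C57BL/6N mice, with 3 libraries from young mice (8 to 12 weeks) and 3 from old mice (22 months). The labels call both groups B6 controls of a parabiosis study, in which the circulations of mice are joined, and name no allele or agent for either. No source used here gives the surface markers of the sort, the number of cells or whether marrow was pooled. The series design calls the libraries of each age biological replicates. All 10 genes listed as HSC markers were measured, and their summed level was 3281 to 3864 CPM (reads per gene scaled to a common library total, with TMM factors) in the young libraries and 3527 to 3880 CPM in the old ones.

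Of the 10 feedback genes, 1 rose in old mice and none fell. Dusp1, the nuclear phosphatase that acts on p38, JNK and ERK, was 6.39-fold higher, while no other member differed by as much as 2-fold in the estimate. Dusp2, Dusp5, Dusp6, Spry2 and Spred1 were higher in every old library than in any young one, by 1.20-fold to 1.89-fold, but did not pass the test. Over all genes tested, 11.6% were separate in this way upwards and 10.8% downwards. With another scaling of the libraries (RLE factors), Spred1 was not separate. Dusp4, Dusp10, Dusp16 and Spry1 overlapped between the ages. A gene passed where its adjusted p (edgeR quasi-likelihood test, Benjamini-Hochberg over all genes tested) lay under 0.05, which held on the higher side for 2.45% and on the lower side for 1.54% of all genes tested.

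The sequences before the start sites of 3 members are shown first, since these members carry the largest change (Dusp1), the second largest estimate (Dusp5) and the change of the ERK-specific cytoplasmic phosphatase (Dusp6). They run from 250 bases before to 50 bases after the RefSeq start on GRCm38.p6, in the direction of the gene. Capitals mark matches, on either strand, to any of 6 motifs: the cAMP response element (CRE, TGACGTCA), the shorter CRE core (TGACG, which also lies within the full element), the CArG box bound by serum response factor, the AP-1 site (TGANTCA), the TATA box (TATAAA) and an ETS site (CCGGAA).

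Dusp1, chr17:26508423-26508722, minus strand: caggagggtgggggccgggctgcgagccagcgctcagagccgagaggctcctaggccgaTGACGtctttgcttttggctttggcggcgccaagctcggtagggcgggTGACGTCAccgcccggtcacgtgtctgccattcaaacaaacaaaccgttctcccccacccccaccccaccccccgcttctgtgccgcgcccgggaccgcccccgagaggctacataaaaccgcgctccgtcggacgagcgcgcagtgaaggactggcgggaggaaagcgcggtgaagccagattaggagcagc
Dusp5, chr19:53528895-53529194, plus strand: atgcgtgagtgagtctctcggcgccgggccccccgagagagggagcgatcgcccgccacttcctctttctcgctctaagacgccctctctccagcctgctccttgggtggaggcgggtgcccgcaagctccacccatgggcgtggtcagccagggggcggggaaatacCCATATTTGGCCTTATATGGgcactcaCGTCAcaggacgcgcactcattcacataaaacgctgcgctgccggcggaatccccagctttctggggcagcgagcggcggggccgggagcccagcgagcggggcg
Dusp6, chr10:99262981-99263280, plus strand: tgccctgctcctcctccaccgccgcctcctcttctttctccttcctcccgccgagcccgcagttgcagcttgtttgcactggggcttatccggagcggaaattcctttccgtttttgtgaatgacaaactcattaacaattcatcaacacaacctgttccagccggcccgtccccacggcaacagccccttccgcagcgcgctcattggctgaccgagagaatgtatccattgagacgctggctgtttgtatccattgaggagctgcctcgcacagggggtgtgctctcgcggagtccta

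The Dusp1 window held 1 full CRE, whose first base lies at position −143 from the start, and 1 further core at −191. A full CRE occurred in 1.8% of the 32544 RefSeq windows of this length, and among the 9 members matched by symbol Dusp1 was the one that had it. The Dusp5 window held 2 CArG boxes side by side, at −82 and −72, and a CRE core at −55. A CArG box occurred in 1.64% of all windows. Dusp2 and Dusp16 each had 1 CRE core (at 6 and −70), which makes 4 of the 9 members with a core against 20.9% of all windows. Spry2 had 1 ETS site, present in 15% of windows. The AP-1 site (7.79% of windows) and the TATA box (13.6%) were found in none of the 9, and Dusp6, Dusp10, Spry1 and Spred1 matched none of the 6 motifs. These matches describe letters in the sequence and show no binding.

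The 3′ ends of the messages also differed among members. AU-rich elements, built on ATTTA in DNA letters, are known to mark messages for rapid decay, and many quickly induced genes carry them. In the 3′ untranslated region (UTR) of the longest coding transcript, Dusp1 had 4 ATTTA motifs in 690 bases and Dusp2 had 4 in 581 bases. Their densities of 5.80 and 6.88 per kilobase compare with a median of 1.5 over 12720 genes with a 3′ UTR of at least 200 bases. Dusp5 and Dusp6 had 1 motif each, with densities of 0.902 and 0.841 per kilobase, both under that median. The longer form TATTTAT occurred in Dusp1 (3 times), Dusp2, Spry1, Spry2 and Spred1, so in 5 of the 10 members. It occurred in 34.2% of those 12720 genes, with no adjustment for the length of the 3′ UTR. A stretch of the Dusp1 3′ UTR with 2 overlapping motifs in capitals, on GRCm38 at chr17:26506157-26506186, minus strand, reads as follows.

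Dusp1 3′ UTR: agctggtccttATTTATTTAacacccccct

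The nuclear inducible phosphatases are encoded by Dusp1, Dusp2, Dusp4 and Dusp5. Dusp1 lies on chromosome 17 from 26505590 to 26562128 (GRCm38, minus strand, 6 annotated transcripts). It stood at 58.7, 49.0 and 41.1 CPM in young replicates 1, 2 and 3, and at 306, 329 and 314 CPM in old replicates 1, 2 and 3. The lowest old library was thus far above the highest young one, and the old libraries lay close together, with a coefficient of variation of 3.68% against 17.7% in the young. The means were 49.6 ± 8.79 and 317 ± 11.6 CPM (SD, n = 3), a log2 fold change of 2.68 ± 0.14 SE (95% interval 2.36 to 2.99, edgeR adjusted p = 1.34e-06). Between 1238 and 7264 counts stood behind each of these values, so counting error was at most 2.84%. Dusp1 passed in all 14 alternative fits, with log2 values from 2.55 to 2.81. Exons of the annotated Dusp1 gene overlap exons of Ergic1 on the opposite strand, and no source used here says whether counting used strand. Ergic1 stood at 72.4 and 69.0 CPM in young and old mice (log2 fold change −0.07, adjusted p = 0.892).

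**Figure D1:**
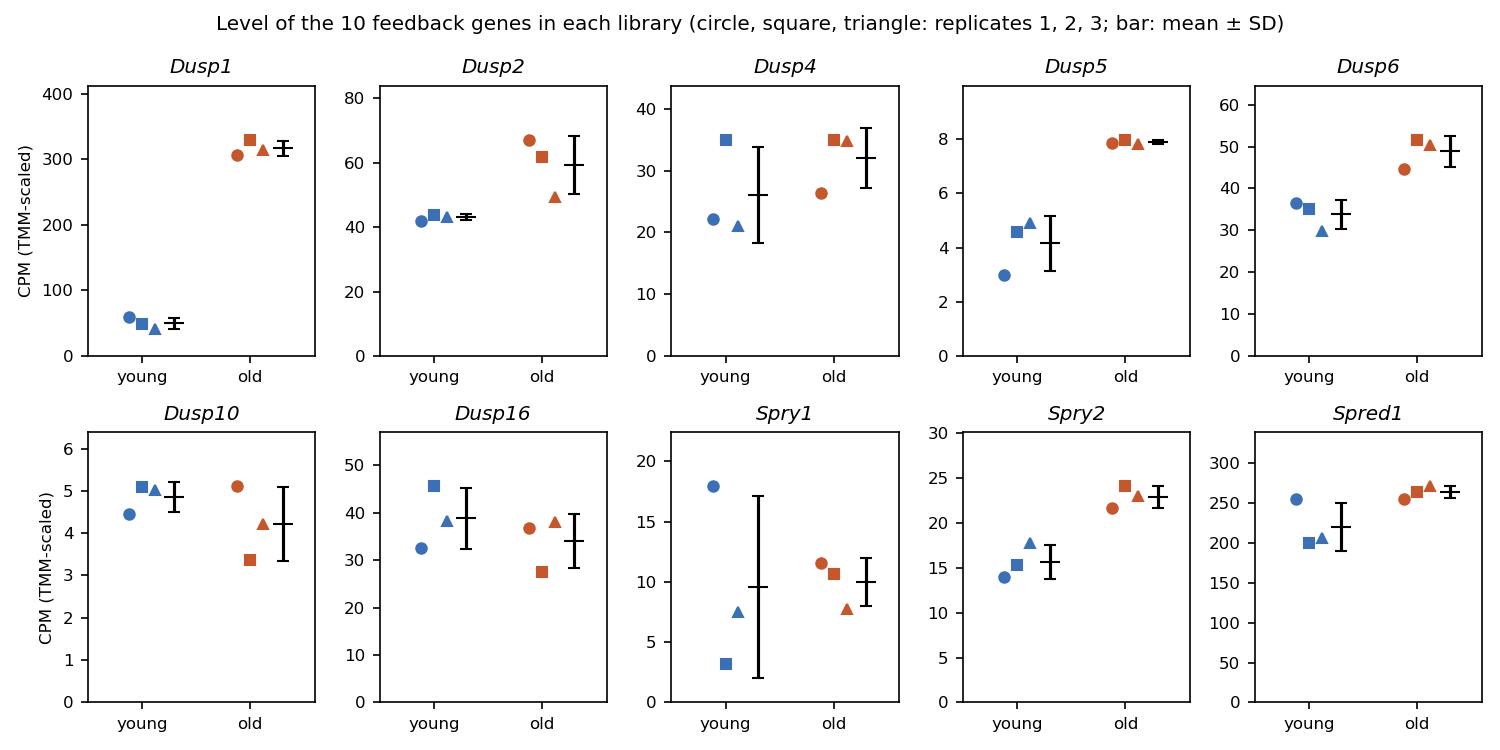
Level of each feedback gene (y axis, CPM on TMM-scaled library sizes, from 0) in the 3 young and 3 old libraries; circles, squares and triangles are replicates 1, 2 and 3, and the black bar is the group mean ± SD. Dusp1 moves from 41.1 to 58.7 CPM in young to 306 to 329 CPM in old libraries, and Spry1 has its widest spread within the young group (3.22 to 17.9 CPM).

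Dusp2, a nuclear phosphatase first known from activated lymphocytes, lies on chromosome 2 from 127336159 to 127338376. It was nearly constant in young libraries, at 42.0, 43.8 and 43.2 CPM, and reached 67.1, 61.7 and 49.5 CPM in old ones. The groups did not overlap, but old replicate 3 stood nearer to the young libraries than to old replicate 1. The log2 fold change was 0.47 ± 0.17 SE (95% interval 0.10 to 0.83) and did not pass (adjusted p = 0.168).

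Dusp5, which dephosphorylates ERK in the nucleus, was the second of the members by estimate and one of the lowest by count. It lies on chromosome 19 from 53529109 to 53542431 and had 63 to 186 counts per library. Its levels were 2.99, 4.59 and 4.89 CPM in young and 7.85, 7.97 and 7.83 CPM in old libraries. All old libraries were above all young ones, and young replicate 1 was the lowest of the 6. The log2 fold change was 0.92 ± 0.37 SE, with a wide 95% interval from 0.10 to 1.74 (adjusted p = 0.236). Counting error reached 12.6% in the library with the fewest Dusp5 counts, beside a coefficient of variation of 24.6% among young libraries. An antisense gene, AC137853.2, overlaps Dusp5 and was not tested.

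Dusp4, the other nuclear phosphatase of the group, lies on chromosome 8 from 34807297 to 34819894. It stood at 22.1, 34.9 and 21.1 CPM in young and at 26.4, 34.9 and 34.8 CPM in old libraries. Young replicate 2 reached the old level, and the groups overlapped. The log2 fold change was 0.30 (95% interval −0.23 to 0.82, adjusted p = 0.612).

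Dusp6 encodes the cytoplasmic phosphatase specific for ERK, whose message is widely read as a gauge of ERK activity. It lies on chromosome 10 from 99263231 to 99267489. It stood at 36.6, 35.1 and 29.9 CPM in young and at 44.7, 51.6 and 50.4 CPM in old libraries, so the groups were separate. The means were 33.8 ± 3.49 and 48.9 ± 3.70 CPM (SD, n = 3), a log2 fold change of 0.53 ± 0.17 SE (95% interval 0.16 to 0.91). It did not pass in edgeR's quasi-likelihood test (adjusted p = 0.127) and passed in 1 of 14 alternatives, the DESeq2 Wald test (adjusted p = 0.0446), which called 1100 genes against 570.

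The difference between Dusp1 and Dusp6 was taken within each library, which needs no scaling between libraries. The log2 ratio of their CPM values was 0.68, 0.48 and 0.46 in young replicates 1 to 3 and 2.78, 2.67 and 2.64 in old replicates 1 to 3. The old libraries exceeded the young by 2.15 in this ratio, and the groups did not overlap. The exact permutation test gave p = 0.1 (2-sided), the smallest value that 3 against 3 libraries allow.

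Dusp10 and Dusp16 encode the phosphatases that prefer JNK and p38 over ERK. Dusp10, on chromosome 1 from 184013302 to 184075636, stood at 4.46, 5.10 and 5.01 CPM in young and 5.10, 3.36 and 4.21 CPM in old libraries. Dusp16, on chromosome 6 from 134715468 to 134792625, stood at 32.6, 45.6 and 38.4 CPM in young and 36.8, 27.5 and 38 CPM in old libraries. The ages overlapped in both genes. They were the 2 members with an estimate below 0, with log2 fold changes of −0.20 for Dusp10 (95% interval −1.08 to 0.68, adjusted p = 0.869) and −0.19 for Dusp16 (−0.63 to 0.26, adjusted p = 0.730). The Dusp10 interval includes a 2-fold lower level, with as few as 40 counts behind a value, whereas the Dusp16 interval is narrower, with at least 328 counts.

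**Figure D2:**
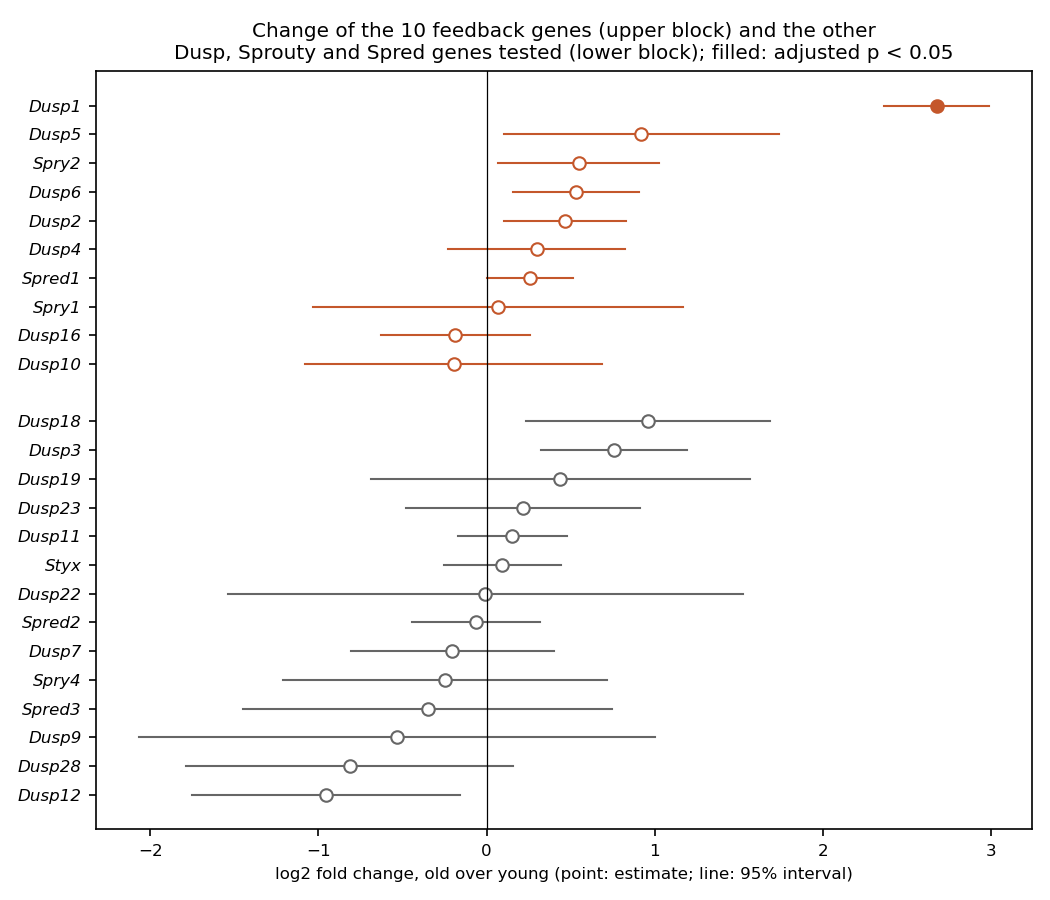
Log2 fold change of old over young mice (x axis; point: estimate, line: 95% interval) for the 10 feedback genes in the upper block and the 14 other Dusp, Sprouty and Spred genes tested in the lower block, with filled points for an adjusted p under 0.05. Dusp1 at 2.68 is the filled point, and the next estimates are 0.96 for Dusp18 and 0.92 for Dusp5.

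Sprouty proteins are induced by growth factor signalling and block the step from receptor to Ras and Raf. Spry2 lies on chromosome 14 from 105891947 to 105896819 and stood at 14.0, 15.3 and 17.7 CPM in young and at 21.6, 24.1 and 23.0 CPM in old libraries. The groups were separate, with a log2 fold change of 0.55 ± 0.22 SE (95% interval 0.07 to 1.03, adjusted p = 0.231). Spry1, on chromosome 3 from 37639947 to 37644598 and overlapped by the opposite-strand gene model Gm42922, stood at 17.9, 3.22 and 7.52 CPM in young and at 11.6, 10.7 and 7.74 CPM in old libraries. Young replicates 1 and 2 were the highest and lowest of all 6 libraries. The coefficient of variation in the young group was 79.1%, while counting error was at most 11%, so the spread between young libraries was far larger than counting gives. The log2 fold change of Spry1 was 0.07 (95% interval −1.03 to 1.17, adjusted p = 0.970), and it ran from −0.35 without young replicate 2 to 0.89 without young replicate 1.

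The log2 ratio of Spry1 to Spry2 was 0.36, −2.22 and −1.23 in young replicates 1, 2 and 3 and −0.90, −1.17 and −1.56 in old replicates 1, 2 and 3. Spry1 exceeded Spry2 on this CPM scale in young replicate 1 and in no other library. The ages differed by −0.18 in the mean (old minus young, exact permutation p = 0.9), and by 0.51 without young replicate 1, so the sign rests on that library. Young replicate 1 also had the highest summed level of neutrophil markers, 237 CPM against 16.6 and 48.3 CPM in the other young and 5.57 to 8.43 CPM in the old libraries, and the highest level of erythroid markers, 1259 CPM against 770 to 935 CPM. The part of these transcripts in the Spry1 values was not tested.

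Spred1 encodes a membrane-bound inhibitor that brings neurofibromin, a brake on Ras, to the membrane. It lies on chromosome 2 from 117121374 to 117182279 and was measured with 3144 to 6743 counts per library. It stood at 255, 200 and 206 CPM in young and at 256, 264 and 271 CPM in old libraries. The lowest old library exceeded the highest young one by less than 1 CPM, and with the RLE scaling the groups overlapped. The log2 fold change was 0.26 ± 0.12 SE (95% interval −0.0006 to 0.52, adjusted p = 0.304).

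Under TMM scaling, all old libraries lay above all young ones in 6 of the 10 members and below them in none. Over all genes tested, this held for 11.6% in the upward and 10.8% in the downward direction. The same 6 genes were separate with library size alone and with upper quartile factors, and 5 of them with RLE factors. The median log2 fold change of the 10 members was 0.38 against −0.02 over all genes tested, and 8 of the 10 estimates were above 0, against 48.2% of all genes. Among the 14 other Dusp, Sprouty and Spred genes tested, 2 were separate upwards and 2 downwards, and 42.9% of estimates were above 0. Of the 10 HSC markers, 6 were separate upwards and none downwards, with 8 estimates above 0 and a median of 0.49. In bulk samples, more cells that express a gene and more RNA per cell cannot be told apart.

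Levels of different genes were compared per kilobase of exon. In young mice the order was led by Spred1 (32.5 ± 4.42 CPM per kilobase), then Dusp2 (21.5 ± 0.467), Dusp1 (15 ± 2.65) and Dusp6 (10.8 ± 1.12; SD, n = 3 for each), and each of the first 3 was above the next in every library. The ranges of Dusp6 and Dusp4, and of Dusp4 and Spry2, overlapped, as did those of each pair of neighbours from Dusp16 through Spry1 and Dusp5 to Dusp10. In old mice Dusp1 came first, with 95.6 ± 3.52 CPM per kilobase, ahead of Spred1 (38.9 ± 1.11), Dusp2 (29.7 ± 4.51) and Dusp6 (15.6 ± 1.18), and each of these 4 was above the next in every library. The ranges of Dusp4 and Spry2, of Dusp16 and Spry1, and of Spry1 and Dusp5 overlapped in old mice. Dusp10 was last in both, with 1.6 ± 0.115 in young and 1.39 ± 0.287 CPM per kilobase in old mice. With the length of the longest transcript in place of all exons, 4 members traded places in young mice, Dusp5 with Dusp10 and Dusp16 with Spry2, and the order in old mice was the same.

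**Figure D3:**
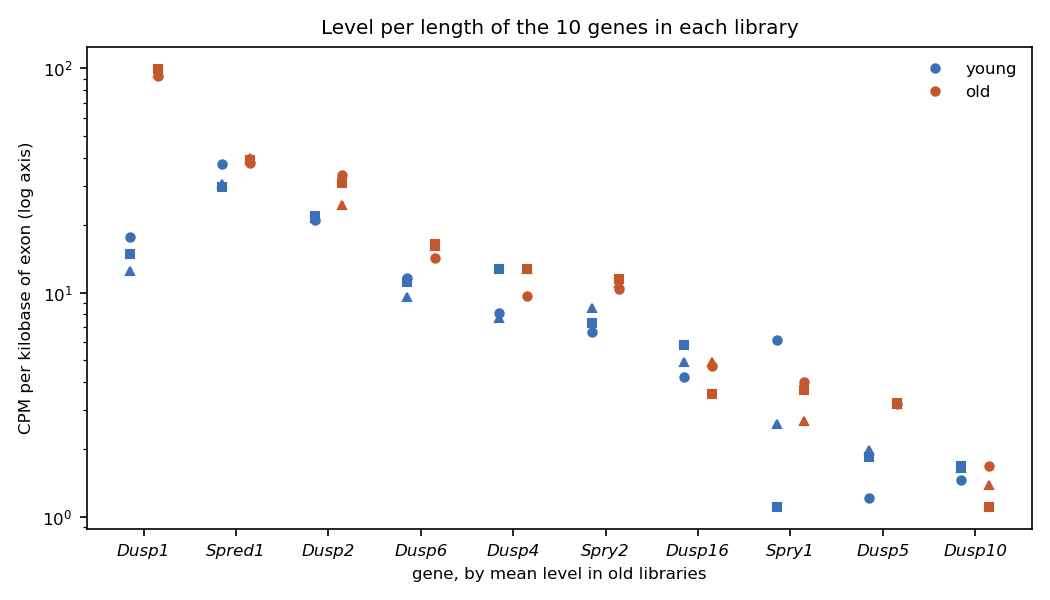
Level per length (y axis, CPM per kilobase of exon, log axis) of the 10 genes in each young and old library, ordered by the mean in old libraries; circles, squares and triangles are replicates 1, 2 and 3. Dusp1 passes from the third place in young libraries (mean 15) to the first in old ones (mean 95.6), and Dusp10 is lowest in both.

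Over the 7 phosphatases, the summed level was 65.3, 70.02 and 59.8 CPM per kilobase in young and 159, 167 and 158 CPM per kilobase in old libraries. Dusp1 made up 23.0% ± 3.57 of this sum in young mice and 59.2% ± 1.07 in the old (SD, n = 3). Without Dusp1, the other 6 summed to 50.1 ± 4.47 and 65.9 ± 2.63 CPM per kilobase. Most of the difference in the sum was thus Dusp1 message, and its share was higher in each old library than in any young one.

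**Figure D4:**
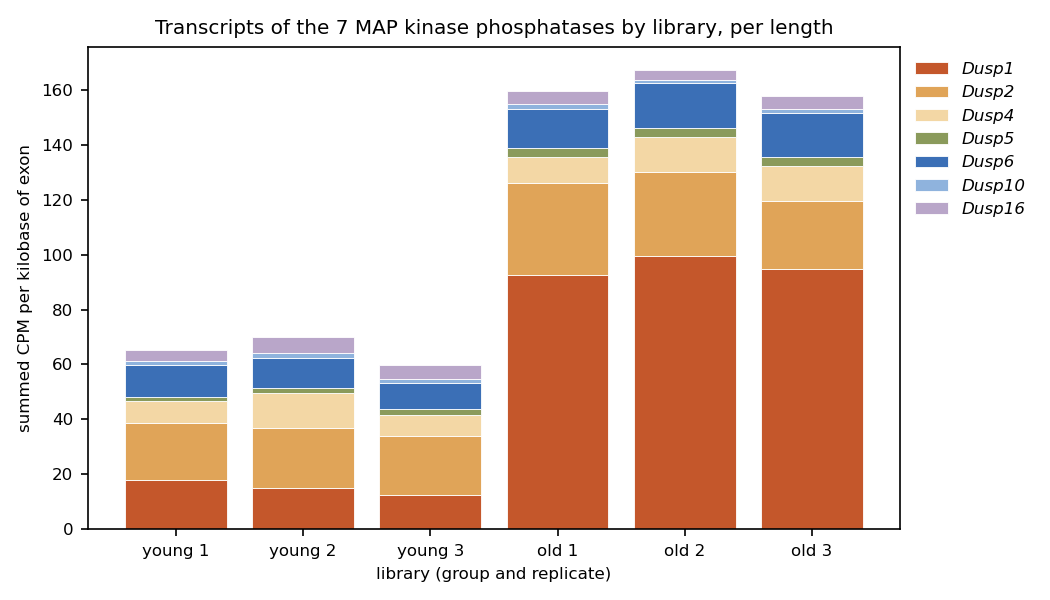
Summed level of the 7 phosphatase genes (y axis, CPM per kilobase of exon, from 0) in each library, stacked by gene. The sum runs from 59.8 to 70.02 in young and from 158 to 167 in old libraries, and the bottom segment, Dusp1, holds 20.8% to 27.1% of it in young and 58.0% to 60.1% in old libraries.

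In the authors' deposited table, Dusp1 was the one member with an adjusted p under 0.05, where 3.57% of the 15649 genes with an adjusted p were called on the higher side of old mice. The authors' log2 value, given as young over old, was −2.52 ± 0.17 for Dusp1 (adjusted p = 5.91e-46), and in the same table −0.50 for Dusp6 (adjusted p = 0.0574) and −0.74 for Dusp5 (adjusted p = 0.109). Over the 10 members, 9 had the same direction in that table as in the fit to the counts. The exception was Dusp10, whose value in the authors' deposited table was −0.02 as young over old.

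The remaining genes of these families did not pass in edgeR's quasi-likelihood test, while the authors' deposited table calls 1 of them, Dusp3 (−1.42 as young over old, adjusted p = 2.92e-05). Of 18 further Dusp, Sprouty and Spred genes, 17 were in the table and 14 passed the filter, with a median log2 fold change of −0.04. Dusp3, a small phosphatase that acts on ERK and JNK, stood at 26.8, 33.3 and 27.3 CPM in young and at 40.7, 60.1 and 46.9 CPM in old libraries (log2 fold change 0.76, adjusted p = 0.0588). Dusp18 had a log2 value of 0.96 (adjusted p = 0.156), Dusp12 one of −0.95 (adjusted p = 0.202) and Dusp28 one of −0.82 (adjusted p = 0.408). Dusp8, Dusp14 and Dusp26 had at most 15 counts in any library and were not tested.

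The kinases on which these inhibitors act did not pass in either direction. Of 24 genes from adaptors and Ras to ERK, none was called, and the median was 0.03, with all estimates between −0.27 and 0.87. The 4 with the smallest p were the ribosomal S6 kinase gene Rps6ka3 (0.33, adjusted p = 0.204), the phosphatase gene Ptpn11 (−0.27, adjusted p = 0.332), the exchange factor gene Sos1 (0.19, adjusted p = 0.471) and Hras (0.87, adjusted p = 0.495). Of 23 JNK and p38 genes tested, none was called, and the median was 0.12. They included Mapk12 (0.82, adjusted p = 0.314), which encodes a p38 kinase, Mapk8 (−0.41, adjusted p = 0.398), which encodes JNK1, Mapkapk2 (0.25, adjusted p = 0.424) and Rps6ka5 (0.33, adjusted p = 0.434).

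Among 18 receptors that feed the pathway, 2 were called higher and 1 lower, with a median of 0.01. Over all genes tested, 2.45% were called higher and 1.54% lower. Osmr, the oncostatin M receptor, rose by 3.76 and Kdr, the receptor VEGFR2, by 2.78 on the log2 scale, while the cytokine receptor gene Flt3 fell by 1.66. For Csf1r, a macrophage growth factor receptor, the estimate was −2.35 (adjusted p = 0.164). Of 21 other inhibitors of Ras and ERK tested, none was called, and the median was −0.06. Errfi1, a feedback inhibitor of the EGF receptor family, stood at 0.759, 0.157 and 2.78 CPM in young and 4.85, 7.47 and 18 CPM in old libraries (log2 fold change 3.00, adjusted p = 0.0664). Rasa2 (0.44, adjusted p = 0.200), Rasal3 (−0.41, adjusted p = 0.216) and Inpp5d (−0.26, adjusted p = 0.294) had smaller log2 values.

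Targets of the pathway include many immediate early genes. Of 17 tested genes known to respond to ERK, 5 were called higher and none lower, against 2.45% and 1.54% of all genes tested. Their median log2 fold change was 1.09. It is the value of Fosl1, which overlapped between the ages at 3 to 57 counts per library (adjusted p = 0.570). By separation of the libraries, 7 lay higher in every old library and 4 lower, against 11.6% and 10.8% of all genes tested. The 4 lower ones did not pass and were Etv1 (−2.92, adjusted p = 0.0721), Etv5 (−0.47, adjusted p = 0.183) and Elk3 (−0.23, adjusted p = 0.438), all ETS family genes, and Myc (−0.42, adjusted p = 0.0860). Among those called, log2 values were 4.19 for Fos, 3.31 for Egr1, 3.33 for Egr3, 1.05 for the survival gene Mcl1 and 0.92 for Ier3, a stress-responsive gene (adjusted p = 0.0419). Of 16 transcription factors that receive MAP kinase or cAMP signals, 1 was called, the AP-1 subunit gene Jun at 2.96. Mrtfa (−0.68, adjusted p = 0.107), Ets1 (0.71, adjusted p = 0.142) and Crem (0.89, adjusted p = 0.219) did not pass.

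**Figure D5:**
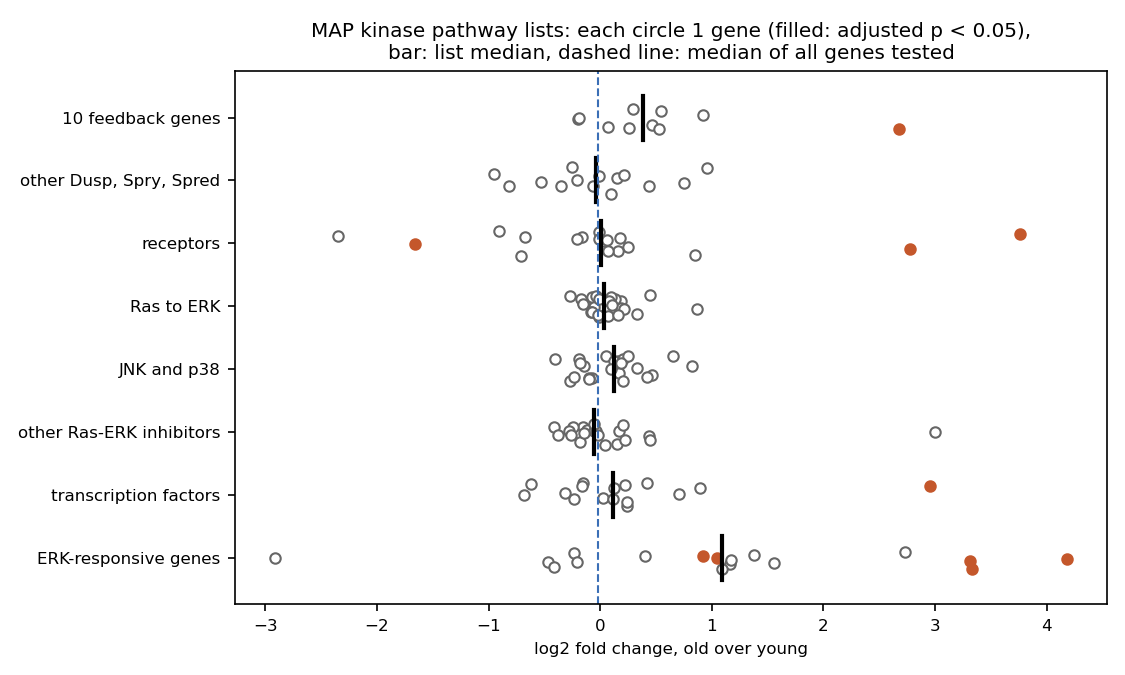
Log2 fold change of old over young mice (x axis) for every gene tested in 8 lists of the MAP kinase pathway; filled circles have an adjusted p under 0.05, black bars are list medians and the dashed line is the median of all genes tested (−0.02). Filled circles appear among the feedback genes (Dusp1), the receptors, the transcription factors and the ERK-responsive genes. The median of the ERK-responsive genes, 1.09, stands farthest from the dashed line and is the value of Fosl1, which did not pass.

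Genes whose pattern over the 6 libraries was most like that of a member were ranked by the root mean square difference of log2 CPM values, each gene centred on its own mean, among 9565 protein-coding genes whose higher group mean reached 10 CPM. Because the ages are compared in the same 6 libraries, a similar fold change is largely set by this ranking. Nearest to Dusp1 were Ier2 (0.15), an immediate early gene, the phospholipid scramblase family gene Plscr2 (0.19), the angiotensin receptor gene Agtr1a (0.25), Jun (0.26) and the BMP receptor gene Bmpr1a (0.28), which were 5.12-fold to 7.76-fold higher in old mice. Nearest to Dusp6 were Spg21 (0.03), the transcription factor gene Mef2c (0.05), the tropomodulin gene Tmod3 (0.05), Wwc2 (0.06) and Ranbp6 (0.06), whose estimates were 1.36-fold to 1.49-fold higher, with Mef2c the one that passed (adjusted p = 0.0101).

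Other properties of the libraries also moved with age. Markers of macrophages summed to 42.3 to 56.6 CPM in young and 11.9 to 15.2 CPM in old libraries, with 7 of 11 tested markers lower and Fcna, Cd5l, Adgre1 and C1qb at 0 in every old library, where a count of 0 allows up to 0.252 CPM in the shallowest library. Neutrophil markers were lower for 4 of 5 tested and erythroid markers for 3 of 8. For comparison, 1.54% of all genes tested were called lower and 2.45% higher. Among endothelial markers, 3 of 7 were higher (Cldn5, Kdr and Clec14a), with sums of 149 to 229 CPM in young and 227 to 277 CPM in old libraries. Pecam1, Emcn, Tie1 and Egfl7 overlapped between the ages and did not pass, with log2 values of 0.15, 0.14, −0.13 and −0.13. Of T and NK cell markers 1 of 6 was higher (Klrb1c; sums 20.5 to 38.9 and 74.6 to 91.2 CPM), and of megakaryocyte markers 1 of 8 (Itgb3; 164 to 253 and 363 to 428 CPM). Without Klrb1c the T and NK cell sum was 16.8 to 27.8 CPM in young and 13.0 to 17.1 CPM in old libraries, and Cd4 had an estimate of −3.18 (adjusted p = 0.0700). Without Itgb3 the megakaryocyte sum was 60.6 to 85.02 CPM in young and 62.2 to 72.5 CPM in old libraries, and Pf4 was lower in every old library (−0.66, adjusted p = 0.0969). None of 3 B cell markers passed (18.1 to 22.3 and 17.4 to 20.8 CPM). Their part in the change of Dusp1 was not tested. Library totals lay between 12494557 and 30931680 counts, the lowest in old replicate 2. Label numbers run on without a gap across the old libraries but not across the young, so age and any step that followed these numbers cannot be told apart.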

How the data were processed

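RNA from sorted HSCs was purified with a kit for small samples and made into low-input libraries, per the labels' protocols. Tools listed in the submitters' processing notes are Salmon, DESeq2, FastQC and MultiQC, with the build GRCm38 and no versions or roles. The authors deposited estimated counts, which were whole numbers and were not rounded further. A second table held the authors' base mean (a normalised signal), the authors' log2 fold change, a deposited test score, and p-values from the authors before and after adjustment.

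Identifiers were matched without version to GENCODE M21 (GRCm38), which gave positions and exon lengths, and 16301 had a symbol. The Dusp1 identifier has an older version than in that annotation. Counts were tested in R 4.3.3 with edgeR 4.0.16 (default filter, minimum count 10 and total 15, TMM factors between 0.955 and 1.06, quasi-likelihood F test, Benjamini-Hochberg adjustment over all genes tested, threshold 0.05, 2-sided). Alternatives used limma 3.58.1 and DESeq2 1.42.0. Standard errors were derived from the F statistic. Log2 CPM for ratios and likeness used a prior count of 2. Totals were 12494557 to 30931680 counts per library. Chi-square per degree of freedom between any 2 libraries lay between 20.5 and 77.6, so none was the same library sequenced again. It was 20.5 to 21.5 between old libraries and 36.1 to 46.6 between young ones. Whether 2 libraries came from the same RNA or animal cannot be told this way, since separate preparation also adds spread. Floors for a count of 0 are 3 counts and cover counting error only, as do the counting errors given.

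The members and lists were chosen with earlier results of these data known. Besides the members, the 4 genes with the smallest p in each list, all called ones where they are more, and the 5 genes most like Dusp1 and Dusp6 were named. Dusp8, Dusp14, Dusp26, Ergic1, Etv1, Etv5, Elk3, Myc, Fosl1, Cd4, Pf4, Pecam1, Emcn, Tie1 and Egfl7 were added after their values were seen. Promoters come from RefSeq (GRCm38.p6). The 3′ UTRs come from GENCODE M21, and the motifs searched in both were chosen after the values were seen. Young replicate 2 carries another library number in its description than in its title, and the title was used to find its column.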

Additional observations from a re-analysis of the deposited data

How the results depend on the processing

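Dusp1 was called higher in all 14 alternatives, and no member was called lower in any. The count of members called higher moved from 1 to 2 with the DESeq2 Wald test and was 1 in the 6 fits that left out 1 library. Over all genes, the count of 570 moved to 1100 with the DESeq2 Wald test and to 1015 with the edgeR exact test, and leaving out 1 library gave 245 to 473, with 322, 345 and 245 without old replicates 1, 2 and 3. With library size alone the split was 310 higher and 298 lower, against 350 and 220. The largest shift of the median of all genes by a scaling was −0.05 on the log2 scale. The log2 value of Spry1 was 0.89 without young replicate 1 and turned to −0.35 without young replicate 2, −0.08 without young replicate 3 and −0.05 without old replicate 1. The log2 ratio of Spry1 to Spry2 ran from a difference of −0.77 to 0.51 when 1 library was left out, and that of Dusp1 to Dusp6 kept its direction. The order by level per kilobase moved for 4 members with the longest transcript. The causes were not tested. Every fit that left out 1 library had fewer samples, and 423 to 473 genes were called without a young library and 245 to 345 without an old one. No paired analysis was possible because the replicate numbers follow accession order and pair nothing. Low counts limit Dusp5 and Dusp10, where counting error reached 12.6% and 15.8%. For Spry1 counting error reached 11%, beside a larger coefficient of variation of 79.1% among young libraries.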

Other observations

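Dusp3 is called in the authors' deposited table, where its log2 fold change of young over old is −1.42 (adjusted p = 2.92e-05), while the deposited counts give the same direction with a smaller size, 0.76 as old over young (edgeR adjusted p = 0.0588). The authors' base mean for Dusp3, 1041, is 22.5% above the mean of the deposited counts over size factors, 850, and that of Dusp12 is 15% above. For 9 of the 10 feedback genes this difference was at most 1.39%, and for Dusp10 it was 7.03%. The cause of these differences was not tested.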
